A study of Mus musculus with 30 samples.

Results

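Livers of aged mice that had eaten a high glycemic index (HGI) diet for 12 months were compared with livers of mice that had eaten a low glycemic index (LGI) diet for as long. The comparison held every liver that the sample labels place in these groups, 3 HGI (replicates 50, 51 and 52) and 4 LGI (replicates 53 to 56), or 7 of the 30 samples of the series. All were wild-type male C57BL/6J mice, a common inbred strain. Each mouse came off a period of chow at 12 months of age, took 1 of the diets for 12 months and was 24 months old when its liver was collected after a fast. The diets were isocaloric, with the same macronutrients, and were pair-fed. The HGI starch was wholly amylopectin, a branched starch that is digested quickly, and the LGI starch was mostly amylose, which is digested slowly. Another 7 livers, from mice fed for 1 month and collected at 7 months of age (3 HGI and 4 LGI), were used in the same model and for the comparison of the lengths of feeding. The study's methods state 4 animals per group, and the labels give 3 HGI livers. No batch, cage or litter is given by the labels.

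The authors deposited estimated counts per gene from poly(A) RNA, which summed to between 18.0 and 26.6 M in the HGI and between 12.8 and 21.9 M in the LGI livers after 12 months, so that a gene at 1 CPM (its count in a library scaled to 1 M) had at least 12.8 counts. Hepatocyte markers summed to 114000 to 115500 CPM in the HGI and 97090 to 136800 CPM in the LGI livers. Retinas were sequenced alongside the livers, and 13 photoreceptor genes summed to 6.75 to 16.8 CPM in the HGI and 3.97 to 5.93 CPM in the LGI livers. HGI replicate 52 stood apart: it had the highest summed level of all 7 livers for markers of Kupffer cells, monocytes, neutrophils, dendritic cells, B cells, T cells and photoreceptors. HGI replicate 51 stood apart in another way, with the highest levels of the lipogenic genes Scd1, Fasn and Elovl6. With 1 liver left out at a time, 68 of the 127 named genes past the limits defined below kept their call in all 7 fits. For genes named in this text, lost calls are given below with the replicate numbers of the livers whose removal ended them. Members of the lists that are not named in this text lost calls as well. All values below are CPM after TMM normalization, listed in the order of replicates 50, 51 and 52 for HGI and 53, 54, 55 and 56 for LGI.

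The liver makes, stores and exports glucose and fat, and it clears hormones, bilirubin and drugs with enzymes that are arranged by position along the lobule, periportal near the incoming blood and pericentral near the outflow. Starch that is digested quickly raises glucose and insulin after a meal. These act through factors that include SREBP-1c (Srebf1) and ChREBP (Mlxipl) to turn on fatty acid synthesis. Aging livers also hold more immune cells, and cells that sense nucleic acids or interferon turn on a shared set of antiviral genes through factors that include STAT2 and IRF9.

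Of 11537 genes tested with limma, 667 (5.78%) were higher and 181 (1.57%) were lower in HGI livers, or 848 (7.35%) in all. The limits were those of the study, a change of 1.5-fold or more with an unadjusted p below 0.05. The counts are of the fit made here, and the study reports fewer genes in each direction at these limits. In the text below, a gene "rose" or "fell" in HGI livers when it passed these limits. After Benjamini-Hochberg adjustment over all genes, 0 genes passed 0.05 with limma, where the smallest adjusted p was 0.0624 and 1260 genes had an unadjusted p below 0.05. With edgeR 0 genes passed, with a smallest adjusted p of 0.0534, and with DESeq2 128 genes (1.11%) did. The lists below are read against the percentages of all genes. Of the genes tested, 325 averaged over 1 CPM, before TMM scaling, in the HGI 12-month livers and in no other group. Their unscaled levels had to lean upward, and 107 of the 667 higher genes were among them. Genes that averaged over 1 CPM in the LGI 12-month livers alone had to lean downward on that scale, and their number was not determined. The p-values measure only the spread between livers, pooled over the 12-month and the 1-month livers in the model. They are not the spread of the 12-month livers alone. A fit of the 12-month livers alone gave 698 genes past the limits. In 976 genes (8.46%), the values of the HGI and LGI livers did not overlap, 589 of them (5.11%) higher and 387 (3.35%) lower in HGI. The median logFC (log2 of the fold, HGI over LGI) over all tested genes was 0.0015, and 50.2% were positive.

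**Figure D1:**
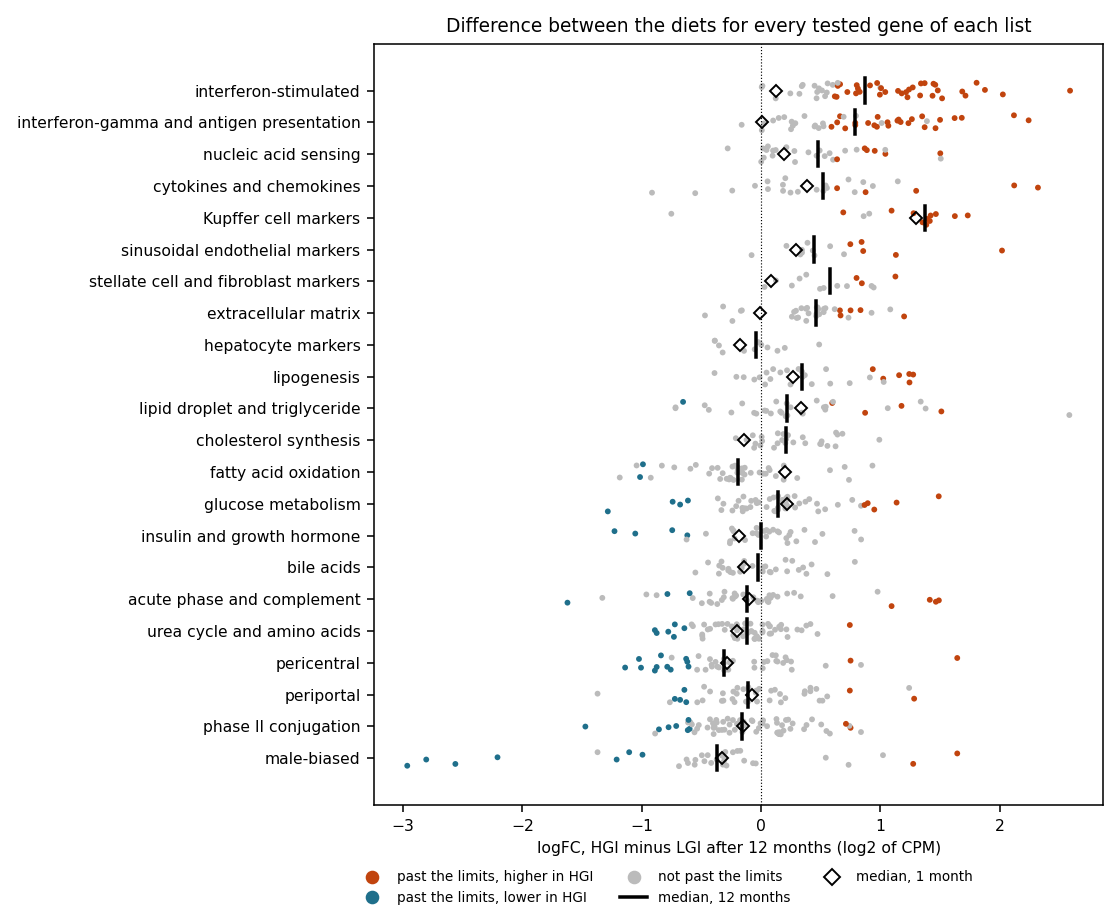
Each point is a tested gene, placed by its logFC (log2 of CPM, HGI minus LGI after 12 months) in the row of its list. Orange and blue points passed the limits, the black bar is the median of the list and the open diamond its median after 1 month. The interferon-stimulated genes all lay above 0, with a median of 0.87, and the Kupffer cell markers had the highest median of the lists drawn, 1.37 (0.78 without replicate 52).

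Genes induced by type I interferon were higher in HGI livers after 12 months. Of 60 listed genes, 52 were tested, and 34 rose and 0 fell, where 5.78% of all tested genes rose. All 52 had a positive logFC, with a median of 0.87, and 3 of the 52 entered the test only because they averaged over 1 CPM in the HGI 12-month livers. In 23 of them the livers of the diets did not overlap. DESeq2 gave 17 of the 52 an adjusted p below 0.05.

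Ifit3b (ENSMUSG00000062488), a close relative of the antiviral RNA-binding protein IFIT3, was at 5.83, 5.72 and 7.41 CPM in the HGI livers and 3.24, 1.7, 1.72 and 2.14 CPM in the LGI livers. The HGI livers sat close together and all above the LGI livers (logFC 1.52, standard error 0.25, p of 2.16e-05 and adjusted p of 0.0624, 2.86-fold). Reads of Ifit3b and Ifit3 could have been split between these near-identical genes. Irf7 (ENSMUSG00000025498), the factor that amplifies interferon production, was at 27.3, 31.4 and 66.9 CPM in the HGI livers and 10.7, 12.8, 6.29 and 14.7 CPM in the LGI livers. Replicate 52 was the highest liver, and replicates 50 and 51 also exceeded every LGI liver (logFC 1.88, standard error 0.34, p of 6.43e-05 and adjusted p of 0.121, 3.67-fold).

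Isg15 (ENSMUSG00000035692), a ubiquitin-like protein that is attached to other proteins during antiviral responses, was at 4.14, 4.46 and 5.33 CPM in the HGI livers and 1.11, 2.29, 1.12 and 1.12 CPM in the LGI livers. All 3 HGI livers were above the LGI livers, of which replicate 54 was the highest (logFC 1.8, standard error 0.36, p of 0.000157 and adjusted p of 0.14). Oasl1 (ENSMUSG00000041827), an OAS-like protein that holds back translation of Irf7 messenger RNA, was at 8.18, 5.84 and 5.66 CPM in the HGI livers and 2.13, 3.77, 2.28 and 1.88 CPM in the LGI livers (logFC 1.46, standard error 0.28, p of 0.000122 and adjusted p of 0.128). In Oasl1 replicate 52 was the lowest of the HGI livers. Rtp4, a chaperone of receptors that interferon induces, was at 24.2, 24 and 44.8 CPM in the HGI livers and 17.9, 14, 9.08 and 7.63 CPM in the LGI livers (logFC 1.37, standard error 0.29, p of 0.000323 and adjusted p of 0.148). Ifit1, which binds viral RNA caps, was at 19.7, 19.1 and 31.7 CPM in the HGI livers and 13, 10.2, 5.4 and 12.7 CPM in the LGI livers, again with no overlap (logFC 1.23, standard error 0.33, p of 0.0023 and adjusted p of 0.247).

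Oasl2, an antiviral relative of the oligoadenylate synthetases, was at 5.1, 7.82 and 26.6 CPM in the HGI livers and 4.49, 2.07, 2.7 and 3.05 CPM in the LGI livers, with a high replicate 52 and no overlap (logFC 1.69, standard error 0.55, p of 0.00799 and adjusted p of 0.321). Calls of Ifit3b, Irf7, Isg15, Oasl1, Rtp4, Ifit1 and Oasl2 held in each of the 7 fits that left out 1 liver. Without HGI replicate 52, 24 of the 52 genes rose and the median was 0.67. Without HGI replicate 50, 39 rose. Summed over the list, the levels were 1380, 1573 and 2185 CPM in the HGI livers and 1179, 1163, 944 and 1009 CPM in the LGI livers, and the HGI livers stayed above the LGI livers.

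**Figure D2:**
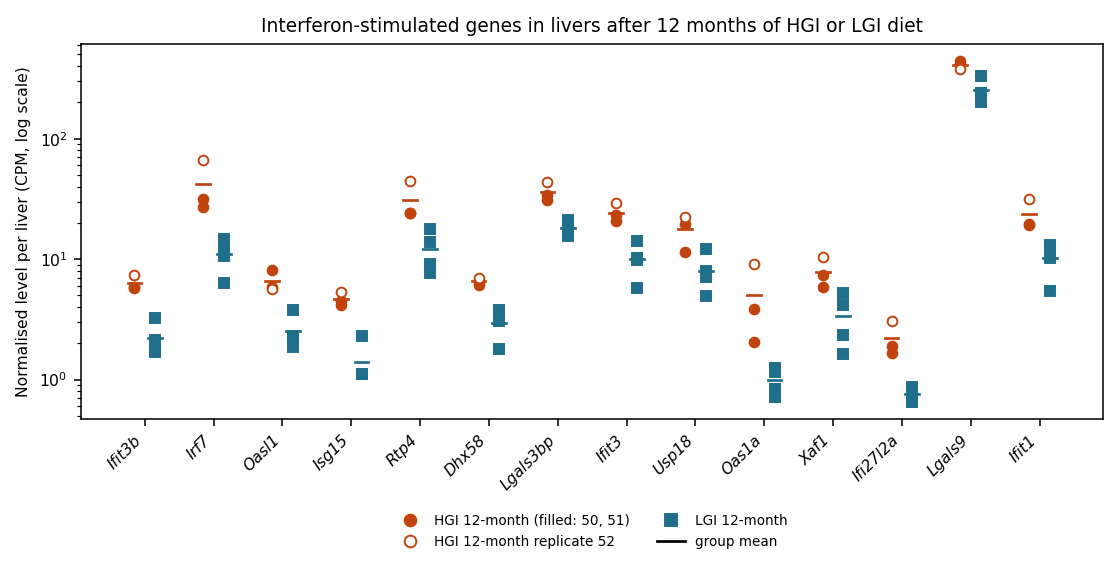
Normalised level (CPM, log scale) of the 14 interferon-stimulated genes with the smallest p among those past the limits, in each liver. Orange circles are HGI livers (open for replicate 52), blue squares LGI livers and bars group means. HGI livers lay above LGI livers in 13 of these 14 genes, and Usp18 overlapped.

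The DNA element read by the complex that holds STAT2 and IRF9 is the interferon-stimulated response element (ISRE), searched here as GAAA, then NN (any bases), then GAAA, on both strands of RefSeq promoters (GRCm38.p6, 250 bases before to 50 after the start). It occurred in 3.99% of the 27025 genes with a promoter. Of the 52 tested interferon-stimulated genes, 40 had a promoter and 19 of them (47.5%) held the letters, 13 of 26 that rose and 6 of 14 that did not pass. Among all tested genes with a promoter, 52 of 509 (10.2%) that rose and 4 of 123 (3.25%) that fell held them. A match is a description, not a binding site or a cause. The promoters of the 4 genes of the list with the smallest p and a match are printed 5′ to 3′ along the strand of the gene, with the matches in capitals, to show the motif that these genes share. They lie at chr19:34607707-34608006 (plus strand), chr4:156200769-156201068 (minus strand), chr19:34583279-34583578 (plus strand) and chr5:120907476-120907775 (minus strand).
Ifit3b: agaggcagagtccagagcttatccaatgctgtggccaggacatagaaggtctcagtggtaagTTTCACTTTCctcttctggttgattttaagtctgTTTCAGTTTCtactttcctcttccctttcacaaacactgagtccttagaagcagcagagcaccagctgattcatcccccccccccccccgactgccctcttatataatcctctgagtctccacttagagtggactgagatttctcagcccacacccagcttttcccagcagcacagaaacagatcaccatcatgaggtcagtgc
Isg15: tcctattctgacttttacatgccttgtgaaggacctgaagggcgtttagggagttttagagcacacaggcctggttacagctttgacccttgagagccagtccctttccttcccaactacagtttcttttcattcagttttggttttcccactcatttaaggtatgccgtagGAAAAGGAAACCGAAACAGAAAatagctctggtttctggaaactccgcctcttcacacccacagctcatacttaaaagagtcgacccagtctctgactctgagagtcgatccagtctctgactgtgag
Ifit3: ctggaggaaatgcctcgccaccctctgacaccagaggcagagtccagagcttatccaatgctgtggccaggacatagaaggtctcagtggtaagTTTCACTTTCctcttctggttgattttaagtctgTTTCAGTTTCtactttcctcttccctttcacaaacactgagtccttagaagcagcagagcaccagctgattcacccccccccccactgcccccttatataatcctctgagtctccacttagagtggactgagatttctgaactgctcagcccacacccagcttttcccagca
Oas1a: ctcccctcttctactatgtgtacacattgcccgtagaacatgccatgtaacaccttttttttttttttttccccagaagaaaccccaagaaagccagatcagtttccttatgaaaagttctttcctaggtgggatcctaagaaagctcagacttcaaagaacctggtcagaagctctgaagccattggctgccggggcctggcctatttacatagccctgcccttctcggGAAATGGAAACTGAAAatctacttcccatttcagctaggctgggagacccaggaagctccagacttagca
In Isg15, 3 overlapping matches began 78, 72 and 66 bases before the start. Those of Oas1a, 2 that also overlap, began 20 and 14 bases before it. In Ifit3b and Ifit3, both matches lay on the other strand, at 188 and 154 bases before the start in Ifit3b and at 156 and 122 in Ifit3.

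Genes of antigen presentation and of the interferon-gamma response were higher in HGI livers as well. Of 45 tested, 25 rose and 0 fell, with a median logFC of 0.79. Only their level in the HGI 12-month livers brought 3 of the 45, H2-DMa among them, into the test. Without HGI replicate 52, 11 rose and the median was 0.47. Tap1, the peptide transporter that loads class I molecules, was at 12.7, 10.6 and 14.3 CPM in the HGI livers and 6.71, 9.25, 3.59 and 6.05 CPM in the LGI livers (logFC 1.07, standard error 0.26, p of 0.000886 and adjusted p of 0.172). The HGI livers stayed above the LGI livers in Tap1, with replicate 52 within a few CPM of the others. Gbp3, a guanylate-binding GTPase induced by interferon-gamma, was at 10.3, 18.8 and 37.7 CPM in the HGI livers and 9.91, 6.66, 3.4 and 5.7 CPM in the LGI livers (logFC 1.68, standard error 0.45, p of 0.00222 and adjusted p of 0.244). All 6 class II genes of the list rose, the chains H2-Aa, H2-Ab1 and H2-Eb1, the peptide editors H2-DMa (logFC 2.24) and H2-DMb1, and Cd74 (logFC 1.15), the class II invariant chain. DESeq2 gave 4 genes of the list an adjusted p below 0.05 (Gbp3, Tap1, H2-DMa and Irgm2). Among the genes named here, calls lost with 1 liver left out were those of H2-Aa (without 52), Irgm2 (without 52) and H2-Ab1 (without 52). Other members lost theirs too: Gbp5, Gbp6 and Igtp without 52, and Gbp9, Gbp10, Ifi47 and Cxcl9 without 52 or 55. So did Psmb8 (without 50), Psmb9 (without 50 or 55) and Irgm1 (without 52, 55 or 56). H2-T23 (without 50, 52, 53 or 56), H2-Q7 (without 50, 52, 53 or 55) and Tgtp2 (without 50, 52, 53 or 54) did as well.

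Cd74 was at 30.4, 21.5 and 42.8 CPM in the HGI livers and 13.4, 16.9, 13.3 and 11.8 CPM in the LGI livers, with no overlap and an adjusted p from limma of 0.288. The class I gene H2-Q6 rose (logFC 0.70) with overlap at LGI replicate 54, and its reads could be split with other Qa genes. The abundant class I genes H2-K1, H2-D1 and B2m did not pass. H2-K1 was at 623, 535 and 619 CPM in the HGI livers and 434, 615, 579 and 521 CPM in the LGI livers and had a logFC of 0.15 (limma p of 0.315). B2m, the light chain of class I, had a logFC of 0.006 (limma p of 0.975), with 1695 to 2840 CPM in HGI and 1917 to 2402 CPM in LGI livers.

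Fewer nucleic acid sensors passed. Of 28 tested, 6 rose and 0 fell, with a median logFC of 0.48, and 0 rose without HGI replicate 52. Only their level in the HGI 12-month livers brought 3 of the 28, Tmem173 among them, into the test. The 6 were Ifi203, Ifi204 and Mndal of the AIM2-like DNA-binding family, whose reads could be split, Tmem173 (STING, the adaptor of cytosolic DNA sensing), Tlr7 (a receptor for single-stranded RNA) and Unc93b1, which carries such receptors to endosomes. Tlr7 was at 1.42, 1.82 and 7.22 CPM in the HGI livers and 1.71, 0.37, 1.12 and 0.61 CPM in the LGI livers, with replicate 52 the one liver above the rest (logFC 1.5, limma p of 0.0315). Of 25 tested cytokine, chemokine and NF-kB genes, 5 rose and 0 fell (median 0.52), and 3 rose and 1 fell without replicate 52. The HGI 12-month livers alone brought 3 of the 25 into the test, Il1b and Ccl5 among them. Il1b (ENSMUSG00000027398), the inflammasome-processed cytokine of macrophages, was at 1.59, 2.25 and 4.76 CPM in the HGI livers and 0.37, 0.444, 0.652 and 0.458 CPM in the LGI livers. It was low everywhere, with all 3 HGI livers above the LGI livers (logFC 2.32, standard error 0.50, p of 0.000362 and adjusted p of 0.148), and Il1a followed (logFC 1.3, limma adjusted p of 0.172). Ccl5, a chemokine of T and NK cells, had a logFC of 2.12 and overlapped between the diets. The chemokine Cxcl16 and the chemokine receptor gene Cx3cr1 also rose. For nucleic acid sensors, 3 rose without replicate 54, 55 or 56 and 11 rose without replicate 50. For cytokines, 3 rose without replicate 55 and 9 rose without replicate 50. The limits were missed with 1 liver left out by Cxcl16 (without 52), Tmem173 (without 52 or 53), Ifi203 (without 52 or 54), Ccl5 (without 52 or 55), Cx3cr1 (without 50, 55 or 56), Mndal (without 52, 54 or 55), Tlr7 (without 52, 54 or 56), Unc93b1 (without 52, 53, 55 or 56) and Ifi204 (without 52, 54, 55 or 56).

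Genes of the acute phase and complement went both ways. Of 43 tested, 4 rose and 3 fell, with a median logFC of -0.12. The risers were C1qa, C1qb and C1qc, which macrophages make, and Hamp, the iron hormone hepcidin. Hamp was at 449, 533 and 204 CPM in the HGI livers and 53.6, 342, 165 and 92.6 CPM in the LGI livers, with overlap, and lost its call in 4 of the 7 fits without 1 liver. C3, the central complement protein that hepatocytes secrete, fell. C3 was at 2695, 2321 and 3338 CPM in the HGI livers and 4870, 5139, 3580 and 3362 CPM in the LGI livers (logFC -0.60, standard error 0.20, p of 0.00917 and adjusted p of 0.321), and it was not past the limits without HGI replicate 51, LGI replicate 53 or LGI replicate 54. Orm2, an acute phase glycoprotein, fell (logFC -1.62), with 118 CPM in LGI replicate 53 and 15.6 to 28.9 CPM in the other LGI livers. Saa3, a serum amyloid gene, also fell, and Saa1, the main serum amyloid of hepatocytes, was at 16.8, 24.3 and 21.2 CPM in the HGI livers and 28.1, 58.5, 20.0 and 13.5 CPM in the LGI livers and did not pass (logFC -0.31, limma p of 0.41). Without HGI replicate 52, 9 genes of the list fell. For the acute phase, 5 fell without replicate 55 and 6 fell without replicate 56, and the median turned to 0.027 without replicate 54. Leaving out 1 liver ended the calls of Orm2 (without 50), C1qa (without 52), Saa3 (without 51 or 54) and Hamp (without 50, 51, 53 or 56).

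Markers of liver macrophages were higher in HGI livers. Of 14 Kupffer cell markers, all tested, 11 rose and 0 fell, with a median logFC of 1.37. Their summed level was 329.5, 328 and 851 CPM in the HGI livers and 265, 163, 229 and 229 CPM in the LGI livers, with no overlap and with replicate 52 far above the other livers. Clec4f, the lectin found on Kupffer cells, was at 30.4, 27.8 and 87.8 CPM in the HGI livers and 16, 5.33, 17.3 and 14.8 CPM in the LGI livers (logFC 1.73, standard error 0.54, p of 0.00645 and adjusted p of 0.293). Cd68, a lysosomal protein of macrophages, was at 3.38, 2.72 and 6.37 CPM in the HGI livers and 1.85, 1.33, 1.82 and 1.22 CPM in the LGI livers (logFC 1.28, standard error 0.37, p of 0.00392 and adjusted p of 0.266). C1qb was at 12.5, 10.2 and 22.3 CPM in the HGI livers and 4.12, 3.18, 8.06 and 5.59 CPM in the LGI livers (logFC 1.46, standard error 0.44, p of 0.00474 and adjusted p of 0.271). Timd4 and Marco, which mark resident macrophages, did not pass, with logFC of 0.91 and -0.75. Without HGI replicate 52, 5 of the 14 rose and the median was 0.78. In bulk RNA, more cells of a type and more RNA per cell cannot be told apart. Replicate 52 had the highest sum of both the Kupffer markers and the interferon-stimulated genes, and the part of the macrophage RNA in the interferon, antigen presentation and cytokine values was not tested.

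Other leukocyte markers were mostly near the detection limit. The 11 neutrophil genes summed to 6.62, 3.12 and 38.2 CPM in the HGI livers and 2.96, 1.18, 1.63 and 2.65 CPM in the LGI livers, and of the 3 that could be tested, all 3 only because of the HGI 12-month livers, S100a8 and S100a9 rose. S100a9, a calcium-binding protein of neutrophils and monocytes, was at 2.25, 1.38 and 13.2 CPM in the HGI livers and 0.88, 0.444, 0.372 and 1.22 CPM in the LGI livers (logFC 2.25, standard error 0.75, p of 0.00921 and adjusted p of 0.321). T and NK cell genes summed to 3.16 to 21.2 CPM in HGI and 2.47 to 5.42 CPM in LGI livers, and the defining genes Cd3e, Cd4, Trac and Ncr1 stayed under 1 CPM in every liver. The 2 T and NK cell genes tested entered only through the HGI 12-month livers. B and plasma cell genes overlapped between the diets in their sum (50.1 to 143 CPM in HGI, 22.6 to 117 CPM in LGI), though Ighg1 was at 0.563, 1.18 and 26.6 CPM in the HGI livers and at most 0.556 CPM in the LGI livers. Among the 7 tested B and plasma cell genes, 2 entered only through the HGI 12-month livers, Ighg1 being 1 of them. Of 9 tested genes of monocyte-derived macrophages, 3 rose (Plac8, Lyz2 and Cx3cr1), 3 of the 9 being tested only because of the HGI 12-month livers. Plac8 was at 9.23, 6.83 and 19 CPM in the HGI livers and 4.58, 4.74, 3.26 and 3.25 CPM in the LGI livers (logFC 1.43, standard error 0.33, p of 0.00070 and adjusted p of 0.17). For monocyte-derived macrophages, 5 rose without replicate 50. Removal of 1 liver ended the calls of Lyz2 (without 52 or 54), Cx3cr1 (without 50, 55 or 56) and Ighg1 (without 53, 54, 55 or 56).

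**Figure D3:**
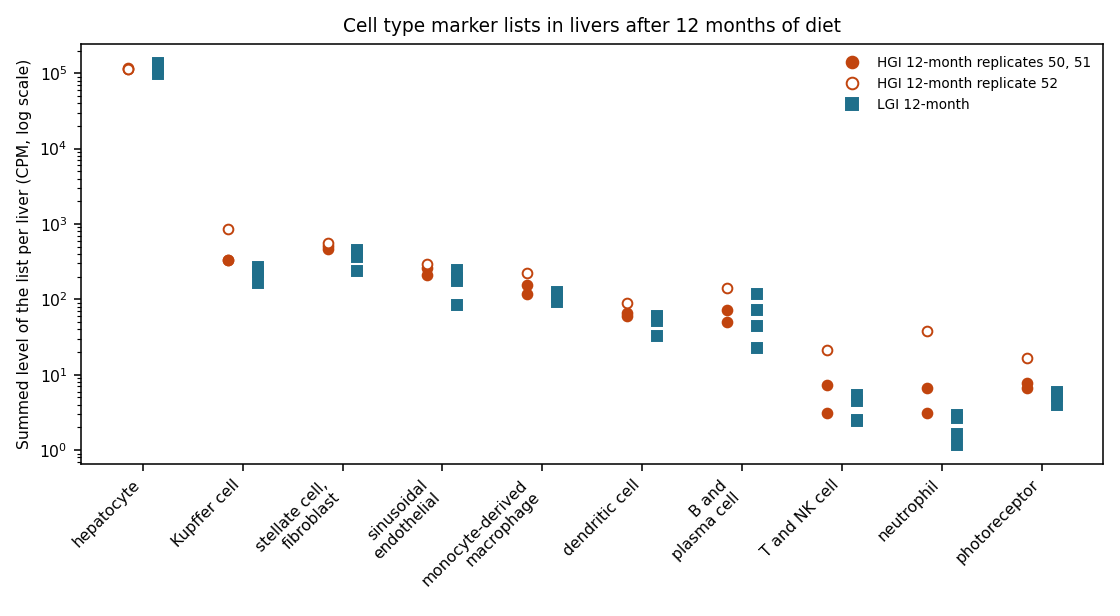
Summed level (CPM, log scale) of the listed marker genes of each cell type in each liver, with orange circles for HGI (open for replicate 52) and blue squares for LGI. Hepatocyte markers overlapped. HGI livers lay above LGI livers for Kupffer cell, stellate cell, neutrophil and photoreceptor genes, and replicate 52 was the highest liver in each list shown except that of hepatocytes.

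Genes of the sinusoid and its matrix that passed were all higher in HGI livers. Of 15 endothelial markers tested, 5 rose and 0 fell (median logFC 0.45), and 14 of 15 were positive. Lyve1 (ENSMUSG00000030787), the hyaluronan receptor of sinusoidal and lymphatic endothelium, was at 13.9, 12.1 and 20.0 CPM in the HGI livers and 3.98, 1.78, 6.01 and 3.46 CPM in the LGI livers. Each HGI liver had more than any LGI liver (logFC 2.02, standard error 0.47, p of 0.000659 and adjusted p of 0.17, 4.05-fold), and the call held in all 7 fits without 1 liver. Stab2, the scavenger receptor of sinusoids, rose less (logFC 0.75). All 14 tested stellate cell and fibroblast markers were positive, and 3 rose (median 0.58). The test held 2 of the 14 only because of the HGI 12-month livers. Pdgfrb (ENSMUSG00000024620), the PDGF receptor of stellate cells and pericytes, was at 5.59, 4.82 and 5.57 CPM in the HGI livers and 2.55, 2.22, 2.75 and 2.14 CPM in the LGI livers, tight within each diet and without overlap (logFC 1.12, standard error 0.23, p of 0.000181 and adjusted p of 0.148). For endothelial markers, 9 rose without replicate 55. For stellate cell markers, 5 rose without replicate 55.

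Among 33 extracellular matrix genes, 2 of them tested only because of the HGI 12-month livers, 5 rose and 0 fell (median 0.46, 28 positive). They were Bgn (biglycan), Sparc (osteonectin), Col4a1 and Col4a2 of the basement membrane and Mmp12, a macrophage elastase. Bgn was at 85.3, 68.2 and 86.4 CPM in the HGI livers and 55.3, 41.5, 62.4 and 44.4 CPM in the LGI livers (logFC 0.66, standard error 0.17, p of 0.00173 and adjusted p of 0.222). Col1a1, the main fibrillar collagen, was at 1.26, 1.3 and 1.65 CPM in the HGI livers and 1.44, 1.41, 0.652 and 0.203 CPM in the LGI livers and did not pass (logFC 0.93, limma p of 0.0722). Acta2, the actin of activated stellate cells, stayed under 1 CPM in all 7 livers. The sums of the matrix genes overlapped, 1447 to 1526 CPM in HGI against 1237 to 1566 CPM in LGI livers. Of 4 cholangiocyte markers tested, 0 passed the limits, and 1 had a limma p below 0.05. The adipocyte list had Fabp4 and Cidec past the limits, while Adipoq, Plin1 and Lep, which define fat cells, were at or near 0. For matrix genes, 9 rose without replicate 50. Calls lost with 1 liver left out were those of Col4a1 (without 52), Sparc (without 54), Bgn (without 54), Cidec (without 51, 54 or 56) and Mmp12 (without 50, 51, 53, 55 or 56).

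Some genes of fatty acid synthesis were higher on HGI, with large differences among the HGI livers. Of 28 tested, 6 rose and 0 fell (Scd2, Elovl5, Elovl3, Hacd4, Srebf1 and Me1), with a median logFC of 0.34. Elovl5 (ENSMUSG00000032349), which lengthens polyunsaturated fatty acids, was at 600.5, 1401 and 735 CPM in the HGI livers and 398, 466, 285 and 318 CPM in the LGI livers. All 3 HGI livers were above the LGI livers and replicate 51 was highest (logFC 1.24, standard error 0.36, p of 0.00371 and adjusted p of 0.266). Scd2, a stearoyl-CoA desaturase, was at 8.94, 8.25 and 7.03 CPM in the HGI livers and 5.42, 4.44, 4.19 and 3.1 CPM in the LGI livers (logFC 0.94, standard error 0.20, p of 0.000342 and adjusted p of 0.148). Both calls held in each of the 7 fits without 1 liver. Srebf1, which encodes SREBP-1c, was at 40.9, 36 and 16.3 CPM in the HGI livers and 11.1, 21.1, 9.55 and 13.9 CPM in the LGI livers. Replicates 50 and 51 were above every LGI liver and replicate 52 was within their range, and the call of Srebf1 was lost in 4 of the 7 fits without 1 liver. The limits were missed with 1 liver left out by Hacd4 (without 52 or 54), Srebf1 (without 50, 51, 53 or 55) and Me1 (without 51, 52, 54, 55 or 56).

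Fasn and Scd1, classic targets of SREBP-1c, did not pass. Fasn, fatty acid synthase, was at 57.1, 223 and 60.2 CPM in the HGI livers and 62.4, 120.1, 38 and 20.1 CPM in the LGI livers, so that replicate 51 alone stood out (logFC 0.91, limma p of 0.154). Scd1, the main liver desaturase, was at 13370, 47880 and 17580 CPM in the HGI livers and 16190, 9086, 6420 and 15620 CPM in the LGI livers (logFC 1.03, limma p of 0.0715). Without replicate 51 the median of the list was 0.037. Mlxipl, which encodes ChREBP, was at 33.2, 31.9 and 20.4 CPM in the HGI livers and 25.8, 31.1, 19.8 and 29.6 CPM in the LGI livers and had a logFC of 0.10. The letters TCACNCCAC, an SREBP element, occurred on either strand in 1 of 24 promoters of the list and in 1.44% of all promoters. Elovl3 was at 78.9, 82.1 and 98.1 CPM in the HGI livers and 28.6, 17.8, 107 and 27.9 CPM in the LGI livers, where LGI replicate 55 exceeded all HGI livers.

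Of 34 genes of lipid droplets and triglyceride synthesis, 4 rose and 1 fell (median 0.22). Fabp2, an intestinal-type fatty acid binding protein, was at 165, 137 and 84.9 CPM in the HGI livers and 74, 66.7, 73.6 and 57.9 CPM in the LGI livers (logFC 0.87, standard error 0.21, p of 0.00101 and adjusted p of 0.173). Of the 34, the diets did not overlap in Fabp2 alone. Cidec, which fuses lipid droplets, was at 7.02, 25.9 and 6.09 CPM in the HGI livers and 7.36, 1.18, 4.66 and 3.15 CPM in the LGI livers, with most of the difference in replicate 51 (logFC 1.51, limma p of 0.0348). Lpin2, a phosphatidate phosphatase, fell (logFC -0.65). Without replicate 52, 8 of these genes rose, and without replicate 51, 2 did. For lipid droplets, 2 rose without replicate 56 and 7 rose without replicate 50, and 3 fell without replicate 54. Leaving out 1 liver ended the calls of Lpin2 (without 50, 55 or 56) and Cidec (without 51, 54 or 56).

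Of 28 cholesterol synthesis genes tested, 0 passed the limits with limma, 0 had an unadjusted p below 0.05 and 0 an adjusted p below 0.05 with DESeq2. Their median logFC was 0.21, and 0.51 without HGI replicate 52, where 4 rose. Of 30 lipoprotein and cholesterol export genes, Pltp and Apoa4 rose and 0 fell. Pltp, the phospholipid transfer protein, was at 62.8, 61 and 22.4 CPM in the HGI livers and 20.2, 31.2, 7.22 and 15.3 CPM in the LGI livers. For Apoa4, an apolipoprotein of triglyceride-rich particles, the values were 196, 212 and 47.4 CPM in the HGI livers and 23.8, 97.6, 78.7 and 38.8 CPM in the LGI livers. In both genes, replicates 50 and 51 were the high livers and replicate 52 lay within the LGI range. Of 30 bile acid genes, 0 rose and 0 fell, with 1 at a limma p below 0.05. Cyp7a1, the first enzyme of bile acid synthesis, ranged over 59.1 to 157 CPM in HGI and 46.7 to 190.0 CPM in LGI livers. Cyp8b1, which makes cholic acid, had a logFC of 0.56 (limma p of 0.173), and Abcb11, the bile salt export pump, of 0.35 (limma p of 0.065). For cholesterol synthesis, 3 rose without replicate 54, and the median turned to -0.016 without replicate 56. Removal of 1 liver ended the calls of Apoa4 (without 50, 51, 53 or 56) and Pltp (without 50, 51, 55 or 56).

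Most fatty acid oxidation genes had a negative logFC. Of 46 tested, 0 rose and 2 fell, 34 were negative and the median logFC was -0.20. Angptl4, a PPAR-alpha target that inhibits lipoprotein lipase, was at 45.6, 44.1 and 46.6 CPM in the HGI livers and 55.4, 83.3, 156 and 92 CPM in the LGI livers. The HGI livers were nearly alike and below the LGI livers, which differed widely (logFC -0.99, standard error 0.32, p of 0.00792 and adjusted p of 0.32). Acot4, an acyl-CoA thioesterase of peroxisomes, had a logFC of -1.01 with overlap at LGI replicate 54. Ppara itself had a logFC of -0.16 (limma p of 0.579) and Cpt1a, the gate of mitochondrial oxidation, of -0.14 (limma p of 0.332). Without LGI replicate 54, 8 of the 46 fell, and without HGI replicate 52, 1 rose and 2 fell. For fatty acid oxidation, 2 rose without replicate 53, and 4 fell without replicate 50.

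Among 53 glucose metabolism genes, 5 rose and 4 fell, with a median logFC of 0.14, and of 0.016 without replicate 51. The HGI 12-month livers alone brought 2 of the 53 into the test, Hk1 among them. Among the risers were the hexokinases Hk1 and Hk2, the muscle-type pyruvate kinase Pkm and Ppp1r3c, a glycogen-targeting subunit. Pkm was at 5.96, 3.87 and 6.75 CPM in the HGI livers and 2.08, 1.85, 3.54 and 2.34 CPM in the LGI livers, low but without overlap (logFC 1.14, standard error 0.26, p of 0.00065 and adjusted p of 0.17). Pklr, the liver pyruvate kinase, was at 146, 383 and 159 CPM in the HGI livers and 179, 166, 103 and 101 CPM in the LGI livers and missed the limit (logFC 0.64, limma p of 0.0553). Pck1, which commits carbon to gluconeogenesis, fell. Pck1 was at 1159, 1312 and 1138 CPM in the HGI livers and 1258, 2007, 2129 and 2526 CPM in the LGI livers, with LGI replicate 53 inside the HGI range (logFC -0.68, standard error 0.25, p of 0.0149 and adjusted p of 0.343). G6pc, which releases free glucose, overlapped fully (logFC 0.20, limma p of 0.709). Pfkfb3, Txnip and Gys2 also fell, and Txnip lost its call in 4 of the 7 fits without 1 liver. For glucose metabolism, 2 rose without replicate 51 or 55 and 3 rose without replicate 56, and 1 fell without replicate 56 and 2 fell without replicate 52 or 55. Calls lost with 1 liver left out were those of Pck1 (without 56), Ppp1r3c (without 51, 52 or 55), Hk1 (without 52, 53 or 54), Txnip (without 50, 52, 55 or 56), Gys2 (without 52, 54, 55 or 56) and Hk2 (without 51, 52, 53, 54, 55 or 56).

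Genes of insulin and growth hormone signaling and fasting responses had 4 members that fell and 0 that rose among 34 tested (median 0.0027). Tsc22d3 (ENSMUSG00000031431), known as GILZ and induced by glucocorticoids, was at 35.9, 41.7 and 68.6 CPM in the HGI livers and 103.8, 125, 116 and 96.3 CPM in the LGI livers. Every HGI liver was lower than every LGI liver (logFC -1.23, standard error 0.34, p of 0.00247 and adjusted p of 0.249), and the call held in each of the 7 fits without 1 liver. Foxo1, the fasting factor that insulin keeps out of the nucleus, was at 34.5, 40.8 and 50.0 CPM in the HGI livers and 66.5, 51.5, 66.8 and 70.3 CPM in the LGI livers (logFC -0.62, standard error 0.18, p of 0.00411 and adjusted p of 0.266), and was not past the limits without HGI replicate 50 or LGI replicate 56. Lepr, the leptin receptor, fell with 1 high LGI liver, replicate 54, and Igfbp1 fell with overlap. Igf1, the growth factor that growth hormone induces, was at 556, 528 and 568 CPM in the HGI livers and 689, 624, 627 and 632 CPM in the LGI livers. These values did not overlap, but the logFC was -0.22 (limma p of 0.168). The genes of the list summed to 3145 to 3246 CPM in HGI and 3574 to 4087 CPM in LGI livers, without overlap. Irs1, an insulin receptor substrate, had a logFC of -0.46 (limma p of 0.0525), and Irs2 of -0.022 (limma p of 0.948). For insulin and growth hormone, 1 fell without replicate 56 and 2 fell without replicate 50 or 54, and the median turned to between -0.10 and -0.0076 without replicate 50, 51, 52, 53 or 55. The limits were missed with 1 liver left out by Igfbp1 (without 50, 54, 55 or 56) and Lepr (without 51, 52, 54 or 56).

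Pericentral drug-metabolizing genes were lower in HGI livers. Of 45 pericentral genes tested, 11 fell and 2 rose, where 1.57% of all tested genes fell, with a median logFC of -0.31. Their summed level was 30290, 24130 and 26800 CPM in the HGI livers and 43700, 35490, 37480 and 36290 CPM in the LGI livers, with no overlap. Between 8 and 15 fell when 1 liver was left out. Of 61 cytochrome P450 genes tested, 12 fell and 2 rose, and their sum was 20340, 16610 and 17830 CPM in the HGI livers and 30410, 25230, 28690 and 27180 CPM in the LGI livers. The HGI 12-month livers alone brought 1 of the 61 into the test. Reads of P450 paralogs, most of all of the Cyp2c genes, could have been split by the counting. For P450 genes, 5 rose without replicate 52.

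Cyp2e1 (ENSMUSG00000025479), which oxidizes ethanol and acetone, was at 9547, 6251 and 6459 CPM in the HGI livers and 12680, 12970, 12170 and 11340 CPM in the LGI livers. The LGI livers were nearly alike and each was above the HGI livers (logFC -0.76, standard error 0.17, p of 0.000551 and adjusted p of 0.155). Cyp1a2 (ENSMUSG00000032310), which metabolizes caffeine, was at 148, 102 and 134 CPM in the HGI livers and 186, 246, 236 and 239 CPM in the LGI livers, again without overlap (logFC -0.84, standard error 0.18, p of 0.000367 and adjusted p of 0.148). Cyp2c37 was at 302, 258 and 551 CPM in the HGI livers and 986, 597, 799 and 768 CPM in the LGI livers (logFC -1.14, standard error 0.29, p of 0.00158 and adjusted p of 0.212), and Cyp2c54 (logFC -1.02), Cyp2c50 (-0.79) and Cyp2c29 (-0.62) fell as well. The calls of Cyp2e1, Cyp1a2, Cyp2c37 and Cyp2c54 held in all 7 fits without 1 liver. Cyp4v3, a fatty acid omega-hydroxylase that is not on the pericentral list, was at 335, 349.6 and 432 CPM in the HGI livers and 731, 483, 622 and 722 CPM in the LGI livers (logFC -0.77, standard error 0.18, p of 0.000923 and adjusted p of 0.172). The call of Cyp2c29 was lost without replicate 53.

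Oat, ornithine aminotransferase of the innermost pericentral cells, was at 474, 718 and 639 CPM in the HGI livers and 1499, 822, 1161 and 1095 CPM in the LGI livers and fell to 0.54 of the LGI level (limma adjusted p of 0.243). Its neighbor in those cells Glul, glutamine synthetase, was at 493, 646 and 875 CPM in the HGI livers and 856, 745, 1028 and 812 CPM in the LGI livers and did not pass (logFC -0.38, limma p of 0.0682). Of P450 genes that rose, Cyp3a59 (ENSMUSG00000061292), a member of the drug-inducible Cyp3a family, was at 18.9, 21.5 and 11 CPM in the HGI livers and 6.39, 5.55, 4.38 and 5.49 CPM in the LGI livers. The HGI livers were all above the LGI livers (logFC 1.62, standard error 0.26, p of 1.75e-05 and adjusted p of 0.0624). The other, Cyp17a1 of steroid synthesis, was at 102, 63.7 and 26.2 CPM in the HGI livers and 14.8, 25, 31.7 and 5.8 CPM in the LGI livers, with replicate 50 highest (logFC 1.79). The call of Cyp17a1 was lost without replicate 50.

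**Figure D4:**
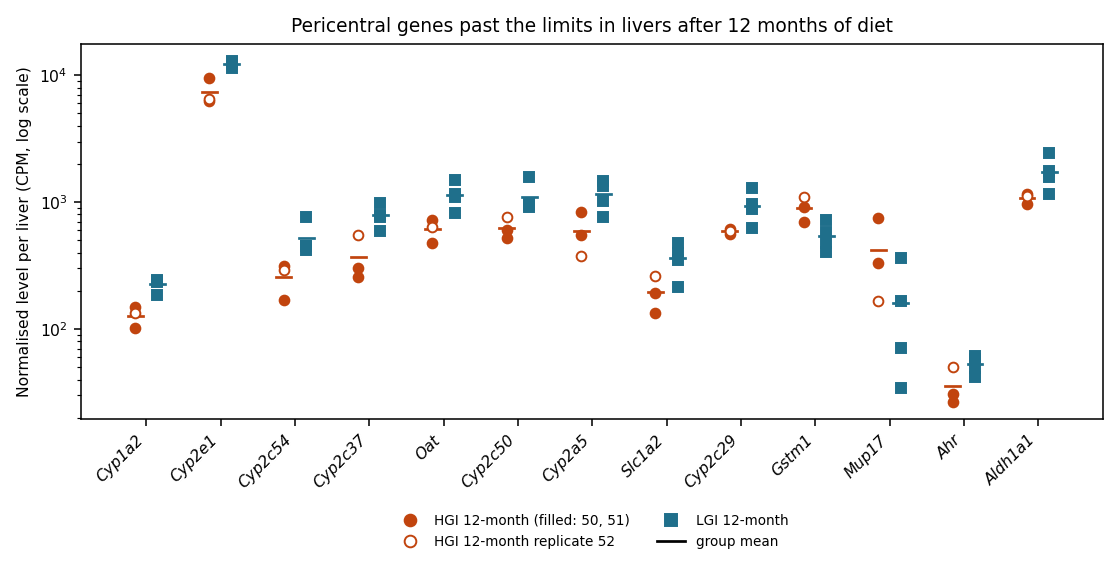
Normalised level (CPM, log scale) of the 13 pericentral genes past the limits in each liver, ordered by p. Orange circles are HGI (open for replicate 52), blue squares LGI and bars group means. Cyp1a2, Cyp2e1, Cyp2c54, Cyp2c37 and Oat did not overlap, and Gstm1 and Mup17 had the higher mean in HGI livers.

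Of 70 conjugation enzymes tested, 7 fell and 2 rose (median -0.16). Ugt1a1 (ENSMUSG00000089960), which conjugates bilirubin, was at 470.0, 409 and 452 CPM in the HGI livers and 857, 699.7, 833 and 831 CPM in the LGI livers. No HGI liver came near the LGI range (logFC -0.86, standard error 0.14, p of 1.81e-05 and adjusted p of 0.0624), and the call held in each of the 7 fits without 1 liver. Ugt1a1 shares exons with other Ugt1a genes, whose reads could have been split. Por, which feeds electrons to all microsomal P450 enzymes, fell (logFC -0.71), as did Sult1d1, Ces1d, Sult1e1, Nat1 and Ahr. Sult1e1 averaged over 1 CPM in the LGI 12-month livers only. The glutathione transferases Gstm1 (logFC 0.75) and Gstm4 (0.71) rose. For conjugation enzymes, 4 rose without replicate 50 and 6 rose without replicate 54, and 4 fell without replicate 53 and 11 fell without replicate 54. Calls lost with 1 liver left out were those of Ces1d (without 52), Gstm1 (without 52), Nat1 (without 50 or 53), Sult1d1 (without 50, 53 or 55), Sult1e1 (without 52, 53 or 55), Ahr (without 50, 51, 53 or 54) and Por (without 51, 52, 55 or 56).

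Of 60 urea cycle and amino acid genes, 6 fell and 1 rose (median -0.12), and their summed level was 31020, 30370 and 25850 CPM in the HGI livers and 36790, 35860, 37940 and 32100 CPM in the LGI livers, without overlap. Cth (ENSMUSG00000028179), which makes cysteine and hydrogen sulfide, was at 215, 214 and 160.2 CPM in the HGI livers and 379, 303, 322 and 336 CPM in the LGI livers. All 4 LGI livers were above the HGI livers (logFC -0.78, standard error 0.18, p of 0.000542 and adjusted p of 0.155), and Cth also fell after 1 month (logFC -0.93). Slc7a2, the arginine transporter, Slc1a2, Acmsd and Tat fell too, and Gldc of glycine cleavage rose (logFC 0.74). Cps1, the entry enzyme of the urea cycle, had a logFC of -0.48 (limma p of 0.033), under the fold limit, and Ass1 of -0.20 (limma p of 0.532). Of 43 periportal genes, 4 fell and 2 rose (median -0.11). The periportal genes summed to 23050 to 24910 CPM in HGI and 28430 to 33820 CPM in LGI livers, without overlap, and Cyp2f2, a periportal P450, was at 296 to 342 CPM in HGI and 276 to 384 CPM in LGI livers. For the urea cycle list, the median turned to 0.056 without replicate 52. For periportal genes, 5 rose without replicate 52, and 2 fell without replicate 54 or 56. The limits were missed with 1 liver left out by Slc7a2 (without 53), Acmsd (without 50 or 56) and Tat (without 50, 52, 54, 55 or 56).

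Major urinary proteins, pheromone carriers that male mouse livers secrete under pulsed growth hormone, were lower in HGI livers. The 19 tested Mup genes summed to 65390, 38460 and 49640 CPM in the HGI livers and 109600, 81620, 112500 and 75150 CPM in the LGI livers. No HGI liver reached any LGI liver, and the mean was 51160 ± 13530 CPM (SD, n = 3) in HGI against 94730 ± 19090 CPM (SD, n = 4) in LGI livers. Of the 19 genes 7 fell and 2 rose, with a median logFC of -0.61, and 4 fell without HGI replicate 51, with a median of -0.33. The genes are nearly identical in sequence and the counting could split their reads, and the sum over the family does not depend on that split. Mup22 (ENSMUSG00000110439) was at 17300, 13480 and 15430 CPM in the HGI livers and 38710, 24400, 36310 and 30540 CPM in the LGI livers (logFC -1.06, standard error 0.23, p of 0.000428 and adjusted p of 0.148). Mup11 was at 4347, 934 and 2151 CPM in the HGI livers and 10620, 8661, 11860 and 7469 CPM in the LGI livers (logFC -2.21, standard error 0.45, p of 0.000214 and adjusted p of 0.148). Mup7 was at 9478, 275 and 2734 CPM in the HGI livers and 17400, 13680, 17220 and 7847 CPM in the LGI livers, with overlap. HGI replicate 51 was lowest in both. Mup20 (darcin), the pheromone protein that females learn, was at 9319, 7424 and 9199 CPM in the HGI livers and 5617, 9146, 15690 and 11020 CPM in the LGI livers and did not pass (logFC -0.17). Mup15 (logFC 1.94) and Mup17 (1.64) rose. Leaving out 1 liver ended the calls of Mup15 (without 50), Mup7 (without 51) and Mup17 (without 50, 51, 55 or 56).

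**Figure D5:**
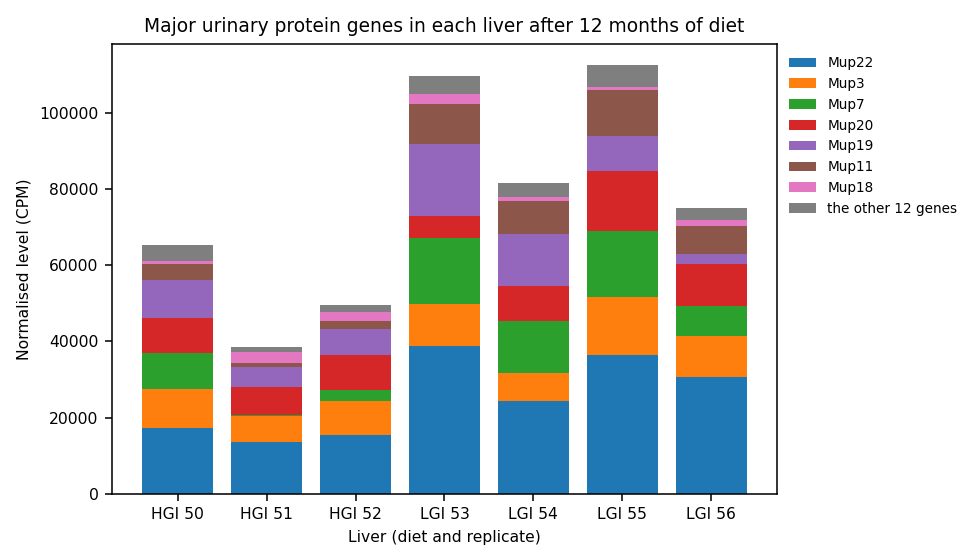
Stacked normalised levels (CPM) of the 19 tested major urinary protein genes in each liver, the 7 most abundant by name and the other 12 together. The whole bars reach between 38460 and 65390 CPM in HGI and between 75150 and 112500 CPM in LGI livers.

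Of 35 male-biased liver genes, Mup genes among them, 7 fell and 2 rose, 30 were negative and the median logFC was -0.37. Cyp4a12a, an androgen-dependent fatty acid hydroxylase, was at 84.1, 149 and 301 CPM in the HGI livers and 858, 249.9, 344 and 236 CPM in the LGI livers, with overlap, and its call was lost without HGI replicate 50 or LGI replicate 53. Hsd3b5 was at 106, 9.0 and 25 CPM in the HGI livers and 36.6, 159.8, 23.9 and 35.1 CPM in the LGI livers and did not pass (logFC -0.69, limma p of 0.38). Of 27 female-biased genes, 2 rose and 4 fell (median -0.14), and Cyp2b9, a marker of the female pattern, ranged over 4.93 to 55.2 CPM in HGI and 5.11 to 108 CPM in LGI livers. For female-biased genes, 5 rose without replicate 53, and 1 fell without replicate 53, 2 fell without replicate 51, 52 or 55 and 7 fell without replicate 54, and the median turned to between 0.15 and 0.22 without replicate 50 or 53.

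The named genes with the smallest p-values also held members of no list. Tmie (ENSMUSG00000049555), known as a part of the mechanotransduction channel of hair cells, had the smallest p of all. It was at 15.2, 17.4 and 16.4 CPM in the HGI livers and 8.52, 7.62, 7.68 and 5.9 CPM in the LGI livers, with narrow groups that were apart (logFC 1.14, standard error 0.16, p of 5.92e-06 and adjusted p of 0.0624). Rps6ka1, a kinase downstream of ERK, was at 5.66, 6.55 and 5.38 CPM in the HGI livers and 2.13, 2.52, 2.14 and 3.2 CPM in the LGI livers (logFC 1.25, standard error 0.22, p of 5.69e-05 and adjusted p of 0.121). Actg1, cytoplasmic actin, was at 76, 74.7 and 72.8 CPM in the HGI livers and 44.6, 54.7, 35.9 and 43.5 CPM in the LGI livers (logFC 0.76, standard error 0.14, p of 8.37e-05 and adjusted p of 0.121). Apol9a, an apolipoprotein L gene whose reads can be shared with Apol9b, was at 44, 35.5 and 53.8 CPM in the HGI livers and 18.3, 21.4, 12 and 25.3 CPM in the LGI livers (logFC 1.25, standard error 0.24, p of 0.000118 and adjusted p of 0.128). Shisa5, Pea15a, an adaptor that binds ERK, and Lhx6, a LIM homeobox factor, rose without overlap, with logFC of 0.95, 0.92 and 1.61.

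Among the genes that fell, Cebpb (ENSMUSG00000056501), a leucine zipper factor of gluconeogenesis and the acute phase, was at 3.67, 3.87 and 4.01 CPM in the HGI livers and 6.95, 8.51, 6.94 and 9.0 CPM in the LGI livers (logFC -1.01, standard error 0.22, p of 0.00046 and adjusted p of 0.148). The 3 HGI livers were nearly the same. Adh7 and Aldh1a3, which oxidize retinol and retinaldehyde, fell with logFC of -0.86 and -1.51, and Aldh1a3 was under 2 CPM in every liver. Rian, an imprinted long noncoding RNA, was at 0.132, 0.118 and 0.283 CPM in the HGI livers and 10.8, 1.04, 2.52 and 2.9 CPM in the LGI livers (logFC -4.18, standard error 0.94, p of 0.000513 and adjusted p of 0.155). It was near 0 in the HGI livers, and LGI replicate 53 was far above the other LGI livers. In the 1-month livers of both diets, Rian was at most 0.505 CPM and Aldh1a3 at most 0.733 CPM. Both genes were thus tested only because of the LGI 12-month livers. Slc16a10, an aromatic amino acid transporter, fell (logFC -0.61) and was not past the limits without HGI replicate 50 or 51.

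The difference between the diets after 12 months was set against that after 1 month, in other mice of another age, with an interaction term in the same model. The study also names the use of different cohorts of mice as a limitation. Age, length of feeding and cohort cannot be told apart in this design. Of all tested genes, 406 (3.52%) passed the same limits in the interaction, 249 (2.16%) of them with the higher difference after 12 months. With limma 460 genes (3.99%) had an unadjusted p below 0.05 and 0 an adjusted p below it, with a smallest adjusted p of 0.549. At an adjusted p below 0.05, edgeR found 0 and DESeq2 found 5. By edgeR 389 and by DESeq2 400 passed the limits. After 1 month, 1.98% of all genes rose and 1.01% fell. Of the 848 genes that passed after 12 months, 101 passed in the same direction after 1 month and 10 in the other, and 171 passed in the interaction. The interaction holds the 12-month difference itself, so genes picked by that difference pass in it more often by construction.

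Most interferon-stimulated genes rose after 12 months of feeding and not after 1. After 1 month 1 of the 52 rose, with a median logFC of 0.13, against 34 after 12 months, and 17 of the 52 passed in the interaction. The interaction was 1.47 (limma p of 0.00154) for Ifit3b, 1.59 (limma p of 0.00854) for Irf7 and 1.52 (limma p of 0.0159) for Isg15. Antigen presentation genes had a median of 0.0054 after 1 month, with 5 that rose, and 6 of 45 passed in the interaction. Among the 5 were the class II genes Cd74 (logFC 1.29) and H2-DMa (1.4). Their interactions were -0.14 (limma p of 0.801) for Cd74 and 0.85 (limma p of 0.26) for H2-DMa. Of the 14 Kupffer cell markers, 7 rose after 1 month with a median of 1.3, against 1.37 after 12 months, and 1 passed in the interaction. The median after 12 months was 0.78 without HGI replicate 52. The summed Kupffer cell markers overlapped between the diets after 1 month (219 to 390.5 CPM in HGI and 210.0 to 331 CPM in LGI livers). Clec4f had a logFC of 1.67 after 1 month and an interaction of 0.065 (limma p of 0.937).

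Some pericentral genes fell at both lengths of feeding. Of 45, 7 fell after 1 month (median -0.28) and 11 after 12, with 2 past the limits in the interaction. Cyp1a2 had a logFC of -0.78 after 1 month, and its interaction was -0.061 (limma p of 0.817). Fatty acid oxidation genes had a median of 0.20 after 1 month, with 4 that rose, and of -0.20 after 12 months, and 5 of 46 passed in the interaction. Angptl4 had a logFC of 0.65 after 1 month and an interaction of -1.64 (limma p of 0.00282). Tsc22d3 had a logFC of 0.30 after 1 month and an interaction of -1.52 (limma p of 0.00612). Cyp7a1 fell after 1 month (logFC -1.97) and not after 12, with an interaction of 2.09 (limma p of 0.00975). Cyp3a59 had a logFC of -0.035 after 1 month and an interaction of 1.65 (limma p of 0.000311). Elovl5 (logFC 0.64 after 1 month) had an interaction of 0.60 (limma p of 0.263).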

How the data were processed

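Stranded poly(A) RNA libraries of liver were sequenced. As the study's methods and the labels state, reads were pseudoaligned with kallisto to Ensembl transcripts of GRCm39 and summed to genes with tximport. The authors deposited estimated counts per gene, without normalization, and a table of normalized signal, which was used only to keep the genes it lists (231 others were left out). Deposited counts were rounded. A gene was tested if its mean exceeded 1 CPM, before TMM scaling, in any of the 4 liver groups. The fit held 1 mean per group over 14 livers, with R 4.3.3, edgeR 4.0.16 for TMM scaling and limma 3.58.1 for voom and moderated tests. p-values are two-sided and from limma unless another tool is named. Symbols were found for 11528 of 11537 genes. Transcript counts and retina were not used here. Named genes were the 12 higher and 12 lower of smallest p among non-overlapping genes past the limits, up to 5 per list, and a set of regulators, of which 4 are not reported here. The members and lists were chosen with earlier results of these data known. The fits were tested on simulated data. The alternatives tried were DESeq2 1.42.0, the quasi-likelihood test of edgeR, other size factors, no limit on low expression, no restriction to the authors' table, the 7 livers alone, sample quality weights and leaving out each liver. Counts of lists without HGI replicate 52 and the sum of the Mup genes were added after seeing the data. Estimated counts of paralogs rest on how kallisto divided shared reads.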

Additional observations from a re-analysis of the deposited data

Results flagged for a closer look

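In 15 of 199 groups of 4 LGI livers (157 named genes and 42 summed lists), 1 liver lay far from the other LGI livers, which chance does in about 1 of 20 groups. Replicate 54 was that liver in 6, replicate 53 in 5 and replicates 55 and 56 in 2 each. Far above the other LGI livers lay Isg15 at 2.29 CPM in replicate 54 (nearest 1.12), Elovl3 at 107 CPM in replicate 55 (nearest 28.6) and Lepr at 56.8 CPM in replicate 54 (nearest 17.2). Also above the other LGI livers were H2-Q6 at 27.1 CPM in replicate 54 (nearest 16.1), Unc93b1 at 7.03 CPM in replicate 54 (nearest 4.91) and Orm2 at 118 CPM in replicate 53 (nearest 28.9). Also above the other LGI livers were Cyp2c54 at 757 CPM in replicate 53 (nearest 455), Igf1 at 689 CPM in replicate 53 (nearest 632) and Hsd3b5 at 159.8 CPM in replicate 54 (nearest 36.6). Also above the other LGI livers was Cdkn1a at 7.08 CPM in replicate 55 (nearest 0.88). Far below the other LGI livers lay Pea15a at 5.7 CPM in replicate 56 (nearest 7.77), Ugt1a1 at 699.7 CPM in replicate 54 (nearest 831) and Cyp1a2 at 186 CPM in replicate 53 (nearest 236). Also below the other LGI livers was Srxn1 at 17.9 CPM in replicate 56 (nearest 24.5). The cholangiocyte markers summed to 36.8 CPM in replicate 53, against 63.6 CPM in the nearest LGI liver. Among these genes Isg15, Unc93b1, Pea15a, Ugt1a1, Cyp1a2, Cyp2c54 and Igf1 still did not overlap between the diets.

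The authors' normalized table does not hold 231 genes that averaged over 1 CPM before TMM scaling in at least 1 group. Of these, 49 were higher and 2 lower in HGI livers past the limits. Of all tested genes, 5.78% were higher and 1.57% lower. Those of the 231 over 1 CPM only in the HGI 12-month livers had to lean upward before scaling, and their number was not determined. As the study's methods state, some highly expressed retinal genes were taken out of the liver data because the tissues shared lanes. How many of the 231 were retinal genes was not determined. Of the listed immune genes among the 231, 4 were higher in every HGI than in every LGI liver. So were 5.11% of all tested genes. How many listed immune genes the 231 hold was not determined. All 4 averaged below 1 CPM in the LGI 12-month livers, and any brought in by the HGI 12-month livers alone had to lean upward. Oas1g averaged 1.08 CPM in HGI and 0.0984 CPM in LGI livers, and Oas3 1.43 and 0.246 CPM, both of them sensors of double-stranded RNA. Mx1, an antiviral GTPase, averaged 0.905 and 0.446 CPM. Ngp, a neutrophil granule protein, averaged 1.38 CPM in HGI livers, with 3.21 CPM in replicate 52, and had 0 counts in all 4 LGI livers.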

How the results depend on the processing

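With other size factors, edgeR, DESeq2, no restriction to the authors' table and, for the diet effect, the 7 livers alone, the counts of genes past the limits stayed within 1.5 times of those reported in both directions. Without the limit on low expression, 1681 genes passed after 12 months (1175 higher, 506 lower) and 1110 in the interaction (539 higher, 571 lower). With sample quality weights, which ran from 0.302 (HGI replicate 50) to 4.83 (HGI replicate 51), 1381 passed (1011 higher, 370 lower) and 1189 in the interaction (755 higher, 434 lower). Leaving out 1 liver gave between 687 and 932 genes after 12 months, 524 to 747 higher and 163 to 311 lower, the 311 without HGI replicate 52. In the interaction such fits gave between 291 and 686 genes, 178 to 403 higher and 113 to 295 lower, the 686 and 403 without LGI replicate 53 and the 295 without HGI replicate 52. The cause was not tested. The interaction was not fitted with only the 7 livers, which hold no 1-month group. No paired analysis was possible because every liver has a replicate number of its own.

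Of 157 named genes, 127 passed the limits, and none of these changed sign under any alternative. Genes not past the limits did change sign. With quality weights these were Cyp7a1 (-0.024), Irs2 (0.20), Saa1 (0.26), Cyp2b9 (0.42), Cdkn1a (0.16) and Arntl (-0.33), and without the limit on low expression B2m (-0.00062). Across the fits without 1 liver, the logFC ran from -0.037 to 0.32 for Mlxipl, -0.25 to 0.85 for G6pc, -0.22 to 0.51 for Cyp7a1, -0.28 to 0.24 for Irs2, -0.21 to 0.16 for B2m, -0.63 to 0.048 for Saa1, -0.13 to 0.025 for Cyp2f2, -0.42 to 0.058 for Ass1, -0.43 to 0.054 for Mup20, -1.66 to 0.13 for Hsd3b5, -1.20 to 0.62 for Cyp2b9, -0.49 to 0.84 for Cdkn1a, -0.17 to 0.84 for Dbp, -0.31 to 0.63 for Arntl and -0.17 to 0.021 for Alb. Between 17 and 28 named genes lost their call when 1 liver was left out, 16 with only the 7 livers and 24 with quality weights. The Mup median of -0.61 became -0.89 on the summed counts. Depth limits genes near 1 CPM, which had as few as 12.8 counts. Levels under 1 CPM, such as those of H2-DMa in the LGI livers (0.14 to 0.356 CPM), rest on fewer.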

Other observations

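Genes of DNA replication were low in these livers. Of 28 proliferation and senescence genes tested, 5 rose and 0 fell (median logFC 0.29), 3 of the 28 being tested only because of the HGI 12-month livers, and 2 rose without HGI replicate 52. Mcm3, a subunit of the replicative helicase, was at 2.02, 2.72 and 3.3 CPM in the HGI livers and 1.02, 1.41, 1.68 and 1.68 CPM in the LGI livers (logFC 0.85, limma adjusted p of 0.293). Top2a, a mitotic topoisomerase, was at 0.861, 1.97 and 5.24 CPM in the HGI livers and 0.88, 0.444, 0.745 and 0.814 CPM in the LGI livers, and its call held in 1 of the 7 fits without 1 liver. Cdkn1a, the p21 cell cycle inhibitor, was at 0.695, 1.3 and 2.64 CPM in the HGI livers and 0.88, 0.37, 7.08 and 0.865 CPM in the LGI livers and did not pass. Of 31 genes of endoplasmic reticulum stress, Atf5 rose and Herpud1 fell (median -0.057), and Hspa5, the main chaperone, had a logFC of -0.24 (limma p of 0.153). For proliferation, 3 rose without replicate 54 and 10 rose without replicate 50. Removal of 1 liver ended the calls of Atf5 (without 50 or 53), Herpud1 (without 52, 55 or 56) and Top2a (without 51, 52, 53, 54, 55 or 56).

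Of 35 genes of oxidative stress and metals, 5 rose and 0 fell (median 0.12). Slc40a1, the iron exporter ferroportin that Kupffer cells also make, was at 173, 172 and 312 CPM in the HGI livers and 149.9, 122, 125 and 128 CPM in the LGI livers and lost its call without replicate 52. Hmox1, heme oxygenase, had a logFC of 0.92 and Nqo1, a target of NRF2, of 0.74 (limma p of 0.0764). Hemoglobin genes Hba-a2 and Hbb-bt rose, and the erythroid list summed to 130.0 to 338 CPM in HGI and 103 to 156 CPM in LGI livers, with replicate 50 the highest. Of 22 clock genes, Nr1d1 alone rose (median -0.20), while Dbp (logFC 0.32) and Arntl (0.29) did not pass. None of the 13 mitochondrially encoded genes (median -0.052) and none of 76 nuclear subunits of oxidative phosphorylation (median -0.091) passed in either direction by limma (0 and 4 at an unadjusted p below 0.05), and without HGI replicate 52 the latter median was 0.092. For oxidative stress, 2 rose without replicate 56 and 3 rose without replicate 51, and 2 fell without replicate 56. For the erythroid list, 4 rose without replicate 51. For clock genes, 2 fell without replicate 54 and 3 fell without replicate 50. For mitochondrially encoded genes, the median turned to between 0.023 and 0.038 without replicate 50 or 53. Calls lost with 1 liver left out were those of Hmox1 (without 52 or 54), Srxn1 (without 51, 52 or 56), Nr1d1 (without 50, 53 or 56), Hba-a2 (without 50, 54, 55 or 56) and Hbb-bt (without 50, 52, 54, 55 or 56).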
